A study of Mus musculus with 4 samples.

Results

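The genes described here make cholesterol and fatty acids: 30 genes that sterol regulatory element-binding proteins (SREBP) are known to control, taken by symbol from a deposited table of 55401 mouse genes. They were divided into a sterol arm of 19 genes and a fatty acid arm of 11, and each symbol was on exactly 1 row of the table. RNA sequencing had been done on 4 libraries of cultured cells that the labels call female germline stem cells, from the ovary of C57BL/6 mice. Of these, 2 libraries came from cells given DMSO, the solvent control, and 2 from cells given daidzein, a soy isoflavone. All cultures shared a medium (MEM-alpha) that held fetal bovine serum, with epidermal growth factor, basic fibroblast growth factor, a glial neurotrophic factor and leukemia inhibitory factor added. No genotype change is named, and neither dose nor duration is given in the sources used here. Separate cultures are not stated for the replicates. A p-value here then sets the difference between groups only against how far these samples spread, which may be technical.

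SREBP are transcription factors held in the membrane of the endoplasmic reticulum. When sterols are scarce, Scap carries them to the Golgi, where proteases release the part that enters the nucleus, while Insig proteins hold Scap back when sterols are plentiful. SREBP2, from Srebf2, is known mainly for cholesterol genes, and SREBP1, from Srebf1, mainly for fatty acid genes. Counts per gene do not measure SREBP cleavage and cannot separate the 1a and 1c forms of Srebf1.

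Promoters are shown first, because SREBP act there together with the factors NF-Y and Sp1. RefSeq promoters on GRCm38.p6, from 250 bases before to 50 after the start, were in the sequence table for 23 of the 30 genes. Entries for Fdps, Fdft1, Sqle, Stard4, Scd1, Scd2 and Fads1 were not used here. The 200 bases before the RefSeq start are printed for Hmgcs1, the first committed enzyme of the pathway, for Insig1 and Srebf2, which regulate it, and for Fasn, the fatty acid synthase. Capitals mark, on either strand, the sterol regulatory element core TCACNCCAC, the NF-Y box CCAAT and the Sp1 box GGGCGG. In the Fasn promoter a pair of CCAAT matches on opposite strands overlap.
Hmgcs1, chr13:119690151-119690350, plus strand: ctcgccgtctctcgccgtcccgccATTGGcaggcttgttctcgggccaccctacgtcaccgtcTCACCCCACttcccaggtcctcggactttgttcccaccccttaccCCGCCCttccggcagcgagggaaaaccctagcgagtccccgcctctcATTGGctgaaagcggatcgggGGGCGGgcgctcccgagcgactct
Insig1, chr5:28071212-28071411, plus strand: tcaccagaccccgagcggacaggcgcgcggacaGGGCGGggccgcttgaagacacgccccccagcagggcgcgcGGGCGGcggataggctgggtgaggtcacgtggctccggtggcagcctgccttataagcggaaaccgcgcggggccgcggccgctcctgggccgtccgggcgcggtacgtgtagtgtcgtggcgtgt
Srebf2, chr15:82147069-82147268, plus strand: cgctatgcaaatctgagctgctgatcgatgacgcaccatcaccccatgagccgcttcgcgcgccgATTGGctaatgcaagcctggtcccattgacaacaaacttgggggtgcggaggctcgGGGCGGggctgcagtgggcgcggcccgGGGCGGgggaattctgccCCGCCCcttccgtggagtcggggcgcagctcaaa
Fasn, chr11:120824548-120824747, minus strand: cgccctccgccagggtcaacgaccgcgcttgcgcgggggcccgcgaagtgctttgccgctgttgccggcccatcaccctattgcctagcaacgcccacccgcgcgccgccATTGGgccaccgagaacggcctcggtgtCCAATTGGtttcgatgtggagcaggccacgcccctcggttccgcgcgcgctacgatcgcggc

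Hmgcs1 alone of the 23 held the core TCACNCCAC, at position -137 from the RefSeq start, where 1.44% of 27025 genes with a promoter in the table held it. The E-box type element ATCACGTGA was found for 0 of the 23 genes and for 0.374% of all genes. Some genes have several promoters in the table, and a gene was counted if any of them held the motif. CCAAT was found for 14 of 15 sterol genes and 5 of 8 fatty acid genes, against 41.1% of all genes. GGGCGG was found for 14 of 15 and 3 of 8, against 38.2%. A match is a description of letters and not a binding site, and the lack of one says nothing about the factor.

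The 4 libraries held between 16230400 and 18537134 counted reads. A gene with 0 reads could have had up to 3, which is 0.162 to 0.185 CPM, the reads of a gene scaled to a common library total. The label of germline stem cells did not match its markers. Of 8 germ cell markers 0 had enough reads to test, with at most 4 reads in any library for Ifitm3 and 0 in all 4 for Pou5f1. Cpa3 and Gata2, genes of mast cells and blood progenitors, had at least 11556 and 22232 reads per library, and Cyp11a1, a steroid-making enzyme, at least 4749. Yet 3 of the 9 mast cell markers, Fcer1a, Tpsab1 and Tpsb2, had 0 reads in all 4 libraries. So did 5 of the 9 steroid-making and somatic ovary markers, among them Cyp17a1 and Cyp19a1. Enough reads to test were found for 4 of 9 mast cell markers, 3 of 9 steroid-making and somatic ovary markers, 3 of 5 leukocyte markers, 0 of 5 fibroblast markers and 1 of 5 markers of fat and liver cells, which make much lipid. Among the last, Adipoq had 0 reads in all 4 libraries, and Alb had 9 and 9 reads with DMSO and 22 and 23 with daidzein. No marker passed the test, and the part of Alb-expressing cells in the results was not tested.

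All 30 genes were expressed and passed the filter on low counts, with 91 to 20702 reads per library. Levels between genes are compared as FPKM, which divides the reads of a gene by its listed exonic length and the library total, over the 4 libraries. The listed length can exceed that of a transcript (17074 against 9513 bases for Acaca), and the order of genes depends on it. Scd2, a stearoyl-CoA desaturase that puts the first double bond into saturated fatty acids, stood highest at 189.5, 199, 192 and 204 FPKM in the order DMSO replicate 1, DMSO replicate 2, daidzein replicate 1, daidzein replicate 2. It lay above 97.7% of the 11700 genes tested and supplied 41.1% to 42.3% of the summed FPKM of the fatty acid arm. Acly, which makes cytosolic acetyl-CoA from citrate, came next with a mean of 72.0 FPKM, and Fads2, the delta-6 desaturase, followed with 66.9. The ranges of Acly and Fads2 overlapped. Fasn (mean 50.9) and Insig1 (45.9), whose ranges also overlapped, led the sterol gene Cyp51 (37.2), the lanosterol demethylase, whose range met neither neighbour's.

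A middle tier held most of the sterol enzymes. Acat2 (31.5 FPKM) and Srebf2 (31.1) overlapped, and below them Elovl5 (26.8), Stard4 (25.7), Hmgcs1 (25.4), Mvd (25.2) and Pmvk (25.1) each overlapped the next. Sqle (22.2), Srebf1 (20.6) and Fdps (19.1) were each separate from the next in order. Fads1 (16.2) and Mvk (15.6) overlapped, as did Elovl6 (13.8) and Fdft1 (13.7), and Nsdhl (12.4) and Dhcr7 (12.0). Lss (9.80), Idi1 (9.62) and Msmo1 (8.87) each overlapped the next. At the bottom were Sc5d (5.10), Hsd17b7 (3.87) and Acacb (3.78), then Acaca (1.90) and Scd1 (1.43), which overlapped and stood above 23.6% and 19.4% of tested genes. The order held desaturases at both ends, Scd2 first and Scd1 last.

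**Figure D1:**
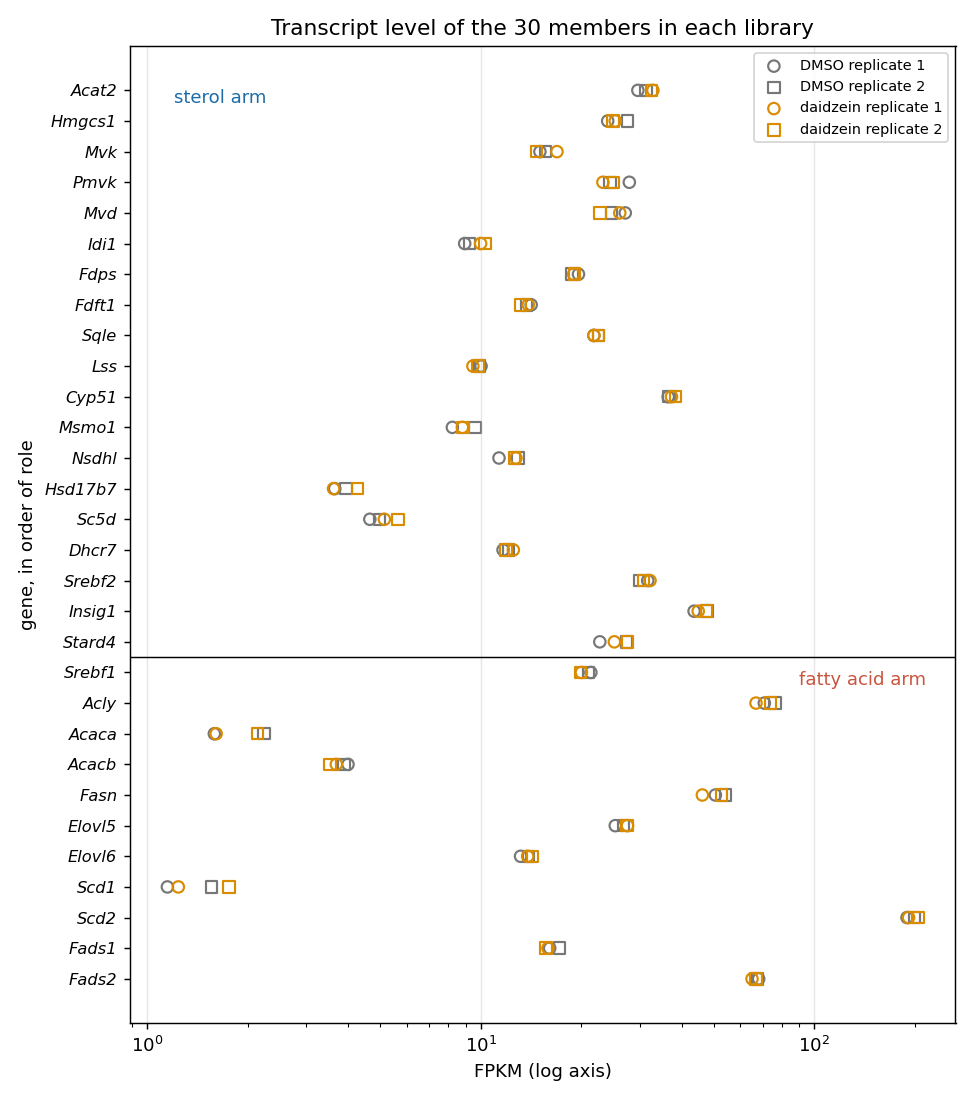
Level of each of the 30 genes in FPKM on a log axis, 1 symbol per library, with grey for DMSO, orange for daidzein, circles for replicate 1 and squares for replicate 2. Symbols of 1 gene lie close together while genes differ from 1.15 to 204 FPKM, and the squares of Acaca and Scd1 lie to the right of their circles.

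Between daidzein and DMSO none of the 30 genes passed edgeR's quasi-likelihood test: 0 rose and 0 fell at an adjusted p under 0.05, and 0 had an unadjusted p under 0.05. DESeq2 and limma on FPKM also called 0 of the 30. Over all 11700 genes 0.0171% were called at the adjusted threshold, a share that gives less than 1 call among 30, and 2.91% had an unadjusted p under 0.05. In bulk RNA, fewer cells of a type and less RNA per cell cannot be told apart. Adjusted p was 1.00 for each of the 30 genes by edgeR with Benjamini-Hochberg adjustment over all genes. Folds of daidzein over DMSO ran from 0.915 for Acacb to 1.12 for Sc5d, and all 30 of the 95% intervals included 1. The intervals lay wholly within 1.5-fold either way for 30 of 30 genes and within 1.25-fold for 27 of 30, against 80.1% and 59.8% of all genes tested and 98.6% and 77.1% of the 8961 tested genes whose CPM lay in the range of these 30. A p that misses the threshold does not show equal levels, but changes beyond these bounds lie outside the intervals. The exceptions at 1.25-fold were Idi1, Sc5d and Scd1.

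**Figure D2:**
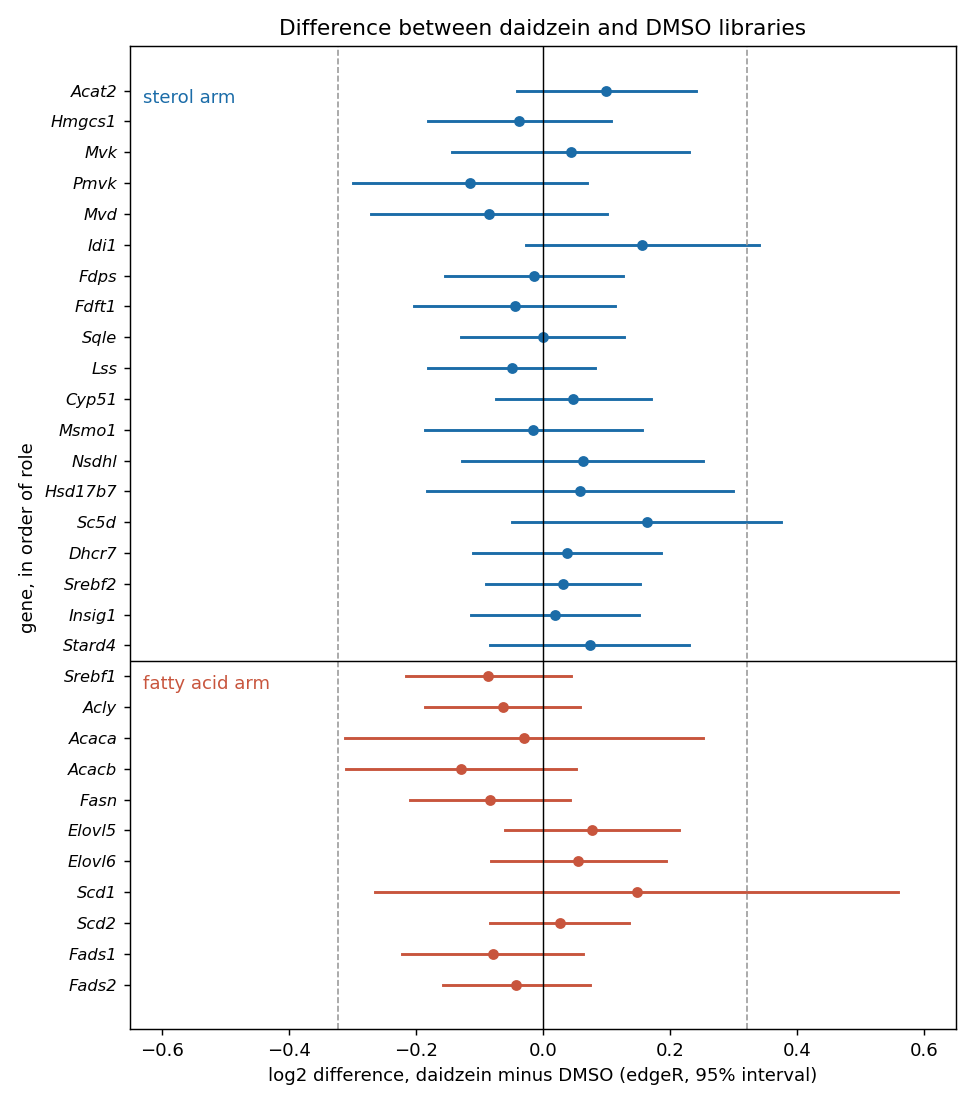
Difference between daidzein and DMSO on the log2 scale for each gene, with points for the edgeR estimate, bars for its 95% interval and dashed lines at 1.25-fold either way. All 30 bars cross 0, and only those of Idi1, Sc5d and Scd1 cross a dashed line.

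In the sterol arm 11 genes were higher and 8 lower with daidzein, none past the test, with a median log2 difference of 0.03 against -0.003 over all genes tested. Leaving out DMSO replicate 1 or daidzein replicate 1 took that median to -0.010 and -0.006, so its sign rests on single libraries. Srebf2 (GRCm38 chromosome 15, 82147181 to 82205379) had 3690 and 3672 reads with DMSO and 3972 and 4091 with daidzein. The DMSO level was 221 ± 10.2 CPM and the daidzein level 226 ± 9.02 (mean ± SD, n = 2), and its fold was 1.02 (95% interval 0.939 to 1.11). The replicate 1 libraries of both groups were above the replicate 2 libraries, and the groups overlapped. Insig1 (chromosome 5, 28071363 to 28078662), whose protein holds Scap back, had 2188 and 2520 reads with DMSO and 2385 and 2726 with daidzein. That was 141 ± 8.02 and 143 ± 4.81 CPM (mean ± SD, n = 2), a fold of 1.01 (0.924 to 1.11). Here replicate 2 was above replicate 1 in both groups.

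Hmgcs1 (chromosome 13, 119690379 to 119708260), which makes HMG-CoA and carries the element core shown above, had 1790 and 2163 reads with DMSO and 1998 and 2123 with daidzein. It stood at 118 ± 10.7 and 115 ± 2.07 CPM (mean ± SD, n = 2), a fold of 0.975 (0.882 to 1.08). The DMSO libraries were the lowest and the highest of the 4 and enclosed the daidzein pair. Sqle (chromosome 15, 59315077 to 59331192), the squalene epoxidase and a slow step of the pathway, had 1964 and 2141 reads with DMSO and 2081 and 2317 with daidzein. With 123 ± 2.22 and 123 ± 1.86 CPM (mean ± SD, n = 2) its groups coincided, at a fold of 1.00 (0.915 to 1.09).

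The sterol genes with the smallest p lay in different steps. Idi1 (chromosome 13, 8885501 to 8892451), the isomerase that supplies dimethylallyl diphosphate, had 509 and 555 reads with DMSO and 602 and 669 with daidzein. Its level was 31.9 ± 0.581 with DMSO and 35.6 ± 0.490 CPM with daidzein (mean ± SD, n = 2), a fold of 1.11 (0.982 to 1.27). Both daidzein libraries were above both DMSO libraries, and Gm13502, a processed pseudogene identical to Idi1 over 684 aligned bases, had 8 to 18 reads per library. Sc5d (chromosome 9, 42251595 to 42264256), a late desaturase of the sterol ring, had 367 and 415 reads with DMSO and 430 and 509 with daidzein. This was 23.4 ± 1.03 and 26.2 ± 1.53 CPM (mean ± SD, n = 2), a fold of 1.12 (0.967 to 1.30), and again the groups did not overlap.

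Acat2 (chromosome 17, 12942890 to 12960747), a cytosolic thiolase at the head of the pathway, had 1221 and 1364 reads with DMSO and 1435 and 1531 with daidzein. Its level was 77.4 ± 2.74 and 83.0 ± 1.25 CPM (mean ± SD, n = 2), a fold of 1.07 (0.972 to 1.18) with the daidzein pair above. Its transcript was 97.7% identical to Acat3 over 1477 bases and 98.7% to Tcp1 over 445, so its count is uncertain. Acat3 had only 4 to 12 reads per library, and Tcp1 had 13466 to 15056. Pmvk (chromosome 3, 89454541 to 89469013), a kinase of mevalonate steps, had 775 and 716 reads with DMSO and 684 and 795 with daidzein. It stood at 44.8 ± 4.42 and 41.3 ± 1.88 CPM (mean ± SD, n = 2), a fold of 0.924 (0.813 to 1.05), and DMSO replicate 1 was the highest of 4 overlapping values.

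The other 11 sterol genes had folds between 0.943 for Mvd, the decarboxylase that makes isopentenyl diphosphate, and 1.05 for Stard4, a carrier of cholesterol between membranes. Among them Cyp51 was higher in both daidzein libraries, at 36.45, 36.7, 37.3 and 38.3 FPKM in the order given above, with a fold of 1.03 (0.951 to 1.12). Lss, the lanosterol synthase, was lower in both, at 10.0, 9.92, 9.47 and 9.80 FPKM and a fold of 0.967 (0.882 to 1.06). Neither passed the test. Fdps, which makes farnesyl diphosphate, had a fold of 0.991, and Fdft1, the squalene synthase, of 0.970. Of the exonic length listed for Fdft1, 18.8% overlaps Ctsb on the opposite strand, and of that for Fdps, 26.7% overlaps the annotated gene Gm43738 on its own strand, which had 0 reads. The remaining ring-processing enzymes were Dhcr7 with a fold of 1.03, Nsdhl with 1.04, Hsd17b7 with 1.04 and Msmo1 with 0.990. Mvk, the mevalonate kinase, had 1.03. In these 7 the groups overlapped, as they did for Stard4 and Mvd.

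In the fatty acid arm 4 genes were higher and 7 lower with daidzein, none past the test, with a median log2 difference of -0.04 against -0.003 over all genes tested. Without daidzein replicate 1 the median was 0.003, with 7 genes higher. Srebf1 (chromosome 11, 60199089 to 60222581) had 1955 and 2027 reads with DMSO and 1940 and 2081 with daidzein. It stood at 119 ± 2.08 and 113 ± 1.26 CPM (mean ± SD, n = 2), a fold of 0.942 (0.861 to 1.03), with both daidzein libraries below both DMSO libraries. Fasn (chromosome 11, 120805846 to 120824547), which builds palmitate from malonyl-CoA, had 8971 and 10150 reads with DMSO and 8685 and 10693 with daidzein. That gave 573 ± 25.4 and 541 ± 46.6 CPM (mean ± SD, n = 2), a fold of 0.944 (0.865 to 1.03). Daidzein replicate 1 was the lowest library, but daidzein replicate 2 was above DMSO replicate 1, so the groups overlapped.

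The 4 genes Acly, Acaca, Acacb and Fasn were all on the lower side without passing the test. For Acly, Fasn and Acaca this rested on single libraries. The log2 difference of Acacb stayed between -0.168 and -0.087 with any library left out. Without daidzein replicate 1 the log2 differences were 0.001 for Acly, 0.003 for Fasn and 0.15 for Acaca, and without DMSO replicate 2 that of Acaca was 0.24. Acly (chromosome 11, 100476353 to 100528000) had 6064 and 6896 reads with DMSO and 6065 and 7241 with daidzein, 388 ± 18.6 and 372 ± 23.9 CPM (mean ± SD, n = 2). Its fold was 0.957 (0.880 to 1.04) and its groups overlapped. Acacb (chromosome 5, 114146535 to 114250761), the acetyl-CoA carboxylase of the mitochondrial surface, had 626 and 642 reads with DMSO and 611 and 631 with daidzein. At 38.0 ± 0.955 and 34.8 ± 1.32 CPM (mean ± SD, n = 2) it had the lowest fold of the 30 genes, 0.915 (0.807 to 1.04), and its groups did not overlap.

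Acaca (chromosome 11, 84129672 to 84401651), the cytosolic acetyl-CoA carboxylase, had 440 and 655 reads with DMSO and 472 and 678 with daidzein, so that the libraries split by replicate number and not by treatment. Its fold was 0.980 (0.805 to 1.19). Much of its transcript has a near-identical copy: the processed pseudogene Gm5182 on chromosome 12 was 99.2% identical over 6118 of 9513 bases. Gm5182 had 468 and 543 reads with DMSO and 458 and 564 with daidzein, a number like that of Acaca itself, so the low level of Acaca and its order against Acacb are uncertain. With reads of both added, the level was 56.1 and 69.7 CPM with DMSO and 54.4 and 66.6 with daidzein, a ratio of 0.962, and the split by replicate number was still there. The order of Acaca against Acacb in FPKM also rests on their listed exonic lengths, 17074 and 9632 bases. In reads Acaca was below Acacb in both replicate 1 libraries and above it in both replicate 2 libraries.

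Desaturases and elongases lay on both sides of no difference, none past the test. Scd2 (chromosome 19, 44293674 to 44306864) had 16805 and 18630 reads with DMSO and 17993 and 20702 with daidzein. It stood at 1062 ± 31.8 and 1082 ± 41.5 CPM (mean ± SD, n = 2), a fold of 1.02 (0.944 to 1.10), and its groups overlapped. Scd1 (chromosome 19, 44394455 to 44407879), the desaturase that is most abundant in liver and fat, had 91 and 131 reads with DMSO and 104 and 160 with daidzein. At 6.63 ± 1.41 and 7.33 ± 1.77 CPM (mean ± SD, n = 2) its fold of 1.11 had the widest interval of the 30 genes, 0.833 to 1.47. Replicate 2 was above replicate 1 in both groups. The ratio of Scd2 to Scd1 in FPKM was 165 and 128 with DMSO and 155 and 116 with daidzein. The longest aligned stretch between their transcripts was 623 bases at 95.5% identity. Scd1 also matched Scd3 over 1053 bases at 91.4% identity, and Scd3 had 19 to 29 reads per library. Some of the few Scd1 reads may thus be uncertain.

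Elovl5 (chromosome 9, 77917364 to 77984519), an elongase of polyunsaturated fatty acids, had 1446 and 1618 reads with DMSO and 1667 and 1793 with daidzein. This was 91.8 ± 3.35 and 96.8 ± 0.902 CPM (mean ± SD, n = 2), a fold of 1.05 (0.959 to 1.16) with the daidzein pair above. Elovl6, which lengthens palmitate, had 13.2 and 13.9 FPKM with DMSO and 13.8 and 14.3 with daidzein and a fold of 1.04 (0.944 to 1.14). Its groups overlapped in FPKM and lay apart, with daidzein above, only in CPM after TMM scaling of the library totals. Fads1 (chromosome 19, 10182888 to 10196877), the delta-5 desaturase, had 1257 and 1421 reads with DMSO and 1315 and 1399 with daidzein. It stood at 80.2 ± 3.51 and 76.0 ± 1.30 CPM (mean ± SD, n = 2), a fold of 0.947 (0.857 to 1.05), with the daidzein pair below. Fads2 had a fold of 0.971 (0.897 to 1.05), also with the daidzein pair below.

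In all, the groups did not overlap in 11 of the 30 genes, 6 higher and 5 lower with daidzein, where 29.7% of all tested genes did so, 14.7% higher and 15.0% lower. By arm it was 5 of 19 sterol genes and 6 of 11 fatty acid genes. The sums of each arm differed little between groups. The sterol arm took 1573 and 1616 CPM with DMSO and 1619 and 1614 with daidzein, a ratio of 1.01. The fatty acid arm took 2639 and 2765 CPM with DMSO and 2577 and 2745 with daidzein, a ratio of 0.985. In the fatty acid arm replicate 1 was below replicate 2 in both groups, by more than the groups differed. The ratio of Srebf2 to Srebf1 in FPKM was 1.48 and 1.42 with DMSO and 1.61 and 1.54 with daidzein, and that of Insig1 to its relative Insig2 was 6.45 and 6.49 against 6.10 and 6.82.

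The small differences of the 30 genes tended to be lower in genes of high GC content. Over the 30 genes the Spearman correlation between the log2 difference and the GC content of the longest annotated transcript was -0.69. It was -0.55 over the 19 sterol genes and -0.90 over the 11 fatty acid genes. Over 11692 tested genes with a GC value it was -0.21, and over those in the CPM range of these 30 it was -0.27. These are correlations across genes of the same 4 libraries, and genes are not independent replicates. Idi1 (41.9% GC) and Sc5d (42.9%) were the highest of the sterol genes, and Pmvk (57.0%), Mvd (59.0%), Acacb (56.7%), Srebf1 (58.4%) and Fasn (57.9%) were the lowest of the 30. Exceptions to that order included Srebf2 (57.9%) and Mvk (56.3%), which were higher with daidzein, and Hmgcs1 (43.1%) and Msmo1 (44.7%), which were lower, none past the test. With the trend on GC content over all genes removed from each library, the correlation over the 30 genes was -0.47. It was -0.29 over the sterol arm, -0.80 over the fatty acid arm and -0.00 over all genes. The sterol median was then 0.04 and the fatty acid median -0.03. The size of the correlations without that removal depended on single libraries. Over the sterol arm and over all genes the sign did too, while over the 30 genes and the fatty acid arm it stayed negative. Without DMSO replicate 1 the correlations were -0.18 over the 30 genes, 0.13 over the sterol arm, -0.49 over the fatty acid arm and 0.03 over all genes. Without daidzein replicate 2 they were -0.30, 0.02, -0.37 and -0.09 in the same order. Leaving out DMSO replicate 2 gave -0.74, -0.74, -0.87 and -0.32, and leaving out daidzein replicate 1 gave -0.69, -0.69, -0.81 and -0.24. The part of base composition in these differences was not tested further.

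**Figure D3:**
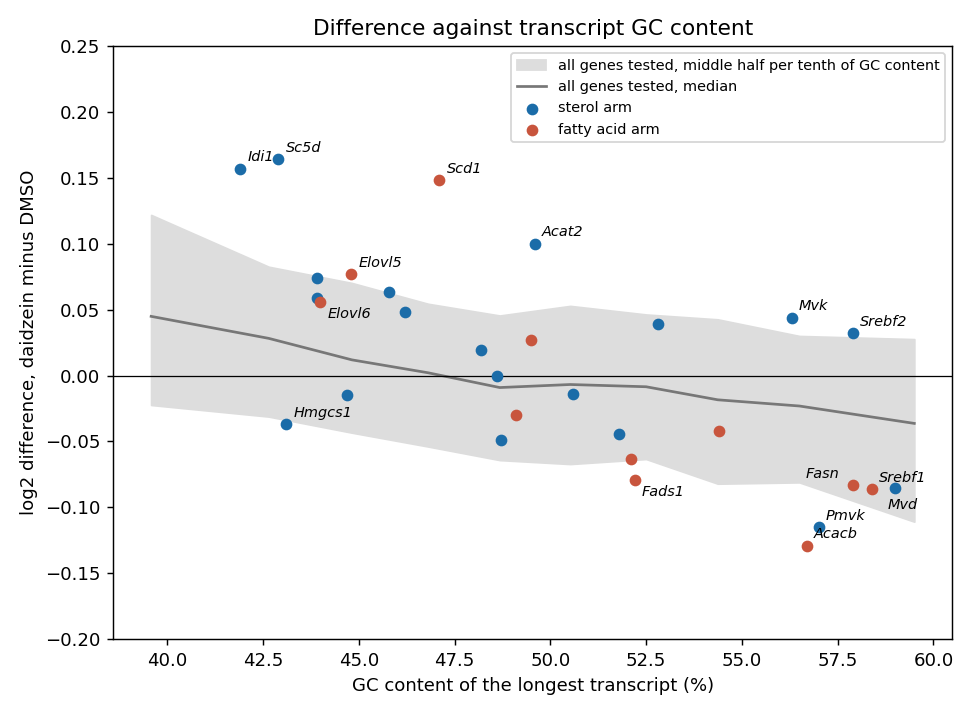
Log2 difference between daidzein and DMSO against the GC content of the longest transcript, with 1 point per gene and blue for the sterol arm, red for the fatty acid arm. The grey line and band give the median and the range between the quartiles of all tested genes in bins of GC content, and the points fall from Idi1 and Sc5d at the left to Acacb, Pmvk and Mvd at the right.

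The spread between replicates was often larger than the difference between treatments. In 21 of the 30 genes the log2 difference between replicates of at least 1 group was larger than that between daidzein and DMSO. That share of 70.0% stood against 81.4% of all genes tested and 82.2% of those in the same CPM range. The larger of 2 differences between single libraries is set against a difference between group means, so the measure itself favours a high share. Acaca was 0.49 higher in replicate 2 than in replicate 1 with DMSO and 0.40 with daidzein, on the log2 scale, and Scd1 was 0.44 and 0.50 higher. Stard4 was 0.25 and 0.12 higher in replicate 2, while Mvd differed by -0.145 and -0.21. Replicate 2 was the higher in both groups for 12 genes and the lower in both for 6. Across the 30 genes these differences in DMSO and in daidzein had a Pearson correlation of 0.69, which was 0.33 without Acaca and Scd1. Over all genes tested it was 0.08, and over those in the same CPM range 0.25. By arm the correlation was 0.30 over the sterol genes and 0.93 over the fatty acid genes, or 0.60 without Acaca and Scd1. It is a description over genes that share the same libraries, and the labels do not say what a replicate number marks.

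**Figure D4:**
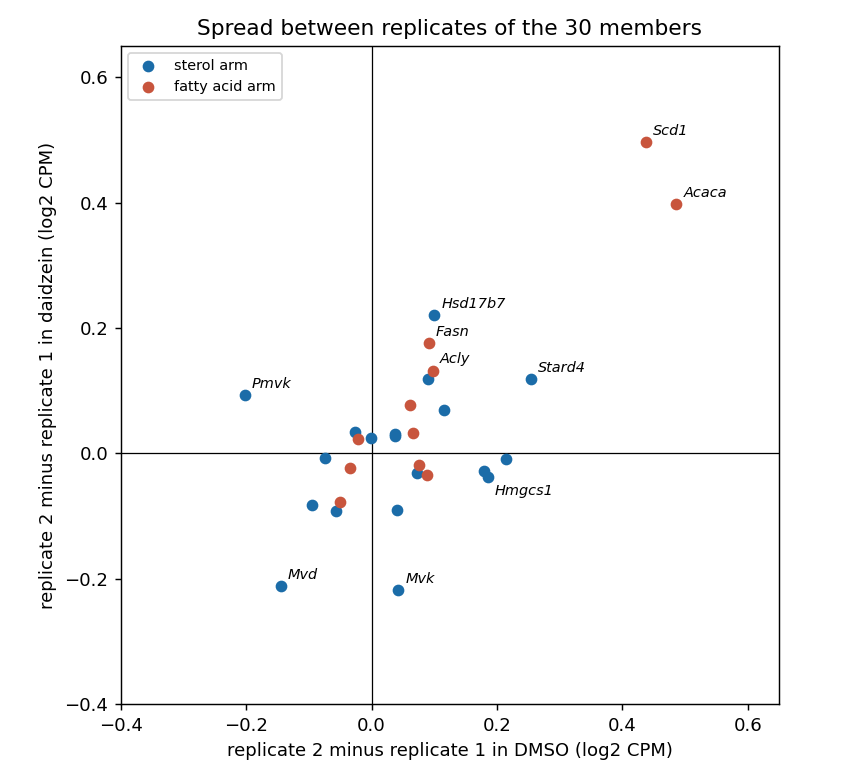
Difference between replicate 2 and replicate 1 in log2 CPM, in DMSO on the horizontal axis and in daidzein on the vertical axis, with 1 point per gene and colours by arm. Acaca and Scd1 lie far to the upper right, at 0.40 to 0.50 on both axes, and most other points lie near the centre.

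Genes next to these in the pathway gave no call either, with 67 of 80 listed having enough reads to test. By edgeR 0 rose and 0 fell, 1 had an unadjusted p under 0.05, and DESeq2 and limma also called 0. Their median log2 difference was -0.01. Of 8 further sterol enzymes tested 3 were higher and 5 lower. Acat1, a mitochondrial thiolase, had a fold of 1.05 (0.967 to 1.14), and Tm7sf2, a sterol reductase with 10 to 26 reads, of 0.602 (0.327 to 1.11). The log2 difference of Tm7sf2, -0.73, was -0.35 without daidzein replicate 1 and -1.29 without daidzein replicate 2.

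Of 11 genes tested for SREBP processing and sterol uptake 7 were higher and 4 lower. Scap had a fold of 0.981 (0.884 to 1.09). Those with the smallest p were Npc2, a lysosomal cholesterol carrier, at 0.946, the lipoprotein receptor gene Lrp8 at 0.964 and Mbtps2, the site-2 protease, at 1.06. Of 11 genes tested for liver X receptors and cholesterol export 3 were higher and 8 lower. Nr1h3, liver X receptor alpha, had 3, 0, 1 and 0 reads in the order given above, while Nr1h2, liver X receptor beta, named after its values were seen, had 662 to 757 reads. The exporter Abca1 was low, at 20 to 38 reads, with a fold of 0.885 (0.532 to 1.47). Abcg1 had a fold of 1.17 (0.935 to 1.46), Rxrb of 0.948 and Abcg4 of 0.626 (0.360 to 1.09). The log2 difference of Abcg4, -0.68, was -0.07 without DMSO replicate 2, which held 45 of its reads against 21 to 23 in the others.

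Of 18 further genes of fatty acid and triglyceride synthesis tested 10 were higher and 8 lower. Lpin1, a phosphatidate phosphatase, had a fold of 0.775 (0.569 to 1.06), Pcx, the pyruvate carboxylase, of 0.913 (0.815 to 1.02) and Elovl1 of 1.06 (0.955 to 1.17). Among the elongases Elovl2, Elovl4 and Elovl7 had 0 reads in all 4 libraries and Elovl3 had 10 to 14, names chosen after their values were seen. Of 12 genes tested for fatty acid oxidation 4 were higher and 8 lower, with Cpt1a, the carnitine transferase that admits fatty acids to mitochondria, at a fold of 0.990 (0.888 to 1.10). Mlycd, whose product breaks down malonyl-CoA, had 71 and 58 reads with DMSO and 39 and 45 with daidzein. Among the 67 it was the 1 gene with an unadjusted p under 0.05, at a fold of 0.607 (0.420 to 0.878), with both daidzein libraries below and an edgeR adjusted p of 1.00. In the same list Hadhb had a fold of 1.06 and Hadh of 0.972. Of 7 genes tested for AMP-activated kinase, which phosphorylates and inhibits acetyl-CoA carboxylases, 4 were higher and 3 lower, with Camkk2 at 0.920, the subunit gene Prkaa1 at 1.06 and Prkag1 at 1.04.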

How the data were processed

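The deposited table holds raw read counts per gene, whole numbers with a different total in each library, and FPKM values by the authors. The submitters' processing notes list the build mm9 and the tools DESeq2, HTSeq 0.6.1 and HISAT2 2.0.1, without roles. Of the FPKM values with a read, 100.0% lay within 0.01 of count per length and total. Coordinates are those of GRCm38, since 99.61% of 55141 genes matched to GENCODE M21 had the same start. The strand setting of the counting is not given in the sources used here, so overlapping genes on opposite strands cannot be told apart.

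The main test was the quasi-likelihood test of edgeR 4.0.16 (R 4.3.3) on the 11700 genes that passed filterByExpr, with TMM factors of 0.995 to 1.005 and Benjamini-Hochberg adjustment at 0.05. Intervals are 95% intervals of that fit. Each pair of libraries differed by more than sampling noise (chi-square of 2.23 to 4.81 per degree of freedom, on genes with 40 or more reads in the pair). Alternatives were DESeq2 1.42.0, limma 3.58.1 on log2(FPKM + 1) and log2(FPKM + 0.1), upper-quartile factors, other filters (none, or at least 5 CPM in 2 libraries), a prior count of 0.5, robust estimation, a replicate block, removal of GC trends and leaving out each library. Similar transcripts were found with blastn 2.17.0 at 90% identity over at least 300 bases. Protein sequences were not used here. Of these steps only the main edgeR test was tried on simulated data, and the outcome is not reported here.

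The members, lists and tests were chosen with earlier results of these data known. All 30 members are named. Those given in full are Srebf1, Srebf2, Insig1, Hmgcs1, Sqle, Fasn, Scd1, Scd2, any past the threshold and up to 4 more per arm with the smallest p. Context lists give up to 3 genes by p plus Scap, Abca1, Nr1h3 and Cpt1a; some genes of these lists are not reported here. Intervals and floors cover counting error or the spread of these libraries only.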

Additional observations from a re-analysis of the deposited data

How the results depend on the processing

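Under 15 alternatives all 450 recomputed values of the 30 genes stayed on the same side of the threshold, with 0 called in any setting, 6 at an unadjusted p under 0.05 and a smallest adjusted p of 0.632. As no gene had a call to lose, this says little about stability. The direction of these uncalled differences changed in 31 of the 450, of which 24 came from leaving out a library, in 18 of the 30 genes, and 7 were of Sqle. The neighbouring genes gave 0 calls in each setting too. When any 1 library was dropped, the sterol median of 0.032 moved between -0.010 and 0.062, and the fatty acid median of -0.042 between -0.071 and 0.003. The lone library of a group is then assumed to vary like the others. Over all genes the count called, 2, became 11 when low counts were kept, 1 under the stricter filter, 0 by limma with either pseudocount and between 4 and 17 on dropping a library. The cause of these changes was not tested. A replicate block gave 27, and 22 with the GC trend removed as well. With the block 0 of the 30 genes passed, and the lowest p was that of Fasn, with an edgeR adjusted p of 0.679. Same-numbered libraries deviated together with r = 0.11 over genes; their chi-square per degree of freedom, 3.51 and 2.23, was below that of libraries of 1 treatment, 4.17 and 4.38. There were just 2 pairs and no label says what a number marks, so no pairing was assumed. The log2 ratio of the arm totals lay between 0.000 and 0.039 (sterol) and between -0.068 and 0.023 (fatty acid) on dropping a library. Scd1, at 91 to 160 reads, and Acaca, which has a near-identical copy, limit what can be said of them.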
